A study of Danio rerio with 16 samples.

Results

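Ankrd1, Ankrd2, muscle LIM protein, the Xin proteins and filamin C form a group of stretch- and damage-related proteins of striated muscle, and their transcripts were followed here in 10 gene rows of a table of 32520 zebrafish genes. The rows were taken by their identifiers. They are both genes named ankrd1, the single ankrd2 and csrp3 genes, and both genes each for xirp1, xirp2 and flnc. The expression filter kept 8 of the 10, and an ankrd2 gene (ENSDARG00000002722) and a xirp1 gene (ENSDARG00000092427) were too scarce to test. The identifier-to-symbol table gives both ankrd1 genes the same symbol, so neither ENSDARG00000075263 nor ENSDARG00000076192 can be assigned to ankrd1a or ankrd1b here. The place of the lesion in ankrd1a is not given either, and the level of these genes therefore does not check the genotype labels.

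RNA came from skeletal muscle of adult fish, 1 fish per library and 4 libraries per group. Wild type fish were of the strain AB (Oregon), and mutants carried the ankrd1abns502 allele, which the labels also write as ankrd1a-/- and which was made with CRISPR/Cas9. Injured fish of each genotype were anaesthetised with tricaine, stabbed with a needle in the dorsal myotome of the tail and left for 5 days, and non-injured fish of each genotype served as controls. Age is given only as adult, and the mutants are 1 allele. Estimated counts summed to between 18011139 and 25231102 per wild type library and between 17324482 and 19811573 per mutant library. Among wild types only non-injured replicate 1 lay below 22006028. Raw counts given below are therefore from deeper libraries in most wild types than in mutants. The samples are bulk tissue, in which fewer cells of a type and less RNA per cell cannot be told apart.

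As background, Ankrd1 and Ankrd2 are muscle ankyrin repeat proteins, which in mammals bind titin in the I-band and are also found in the nucleus. Csrp3, the muscle LIM protein, sits at the Z-disc and interacts with structural proteins there. Xirp1 (Xin) and Xirp2 are actin-binding repeat proteins of attachment sites, and filamin C is the muscle filamin that cross-links actin at the Z-disc and the membrane. In mammals Xin and filamin C gather at sites of myofibril damage, and filamin C is turned over by chaperones.

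Of these genes, the ankrd1 gene ENSDARG00000075263 and xirp1 ENSDARG00000030722 rose after injury in both genotypes. The scarce ankrd1 gene ENSDARG00000076192 was also higher after injury in both, but it entered the test only through the injured groups, so that it had to differ. The flnc gene ENSDARG00000018820 rose in mutants, and its difference in wild type did not pass the test. Neither xirp2 gene nor the flnc gene ENSDARG00000018566 passed in either genotype. Without injury, ENSDARG00000075263 was lower in mutants, and no tested member passed between genotypes after injury or for the difference between the injury responses.

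The ankrd1 gene ENSDARG00000075263 is given as CPM, its count in a library of the usual standard size, after TMM scaling between libraries. In replicates 1 to 4 of non-injured wild type it stood at 4.27, 1.77, 2.99 and 5.08 CPM, and in injured wild type at 148, 151, 186 and 179.8 CPM. In non-injured mutants it stood at 1.19, 1.44, 1.16 and 1.09 CPM, and in injured mutants at 147.4, 141, 90.05 and 148 CPM. Every injured fish lay far above every non-injured fish of its genotype, and all 4 non-injured mutants lay below all 4 non-injured wild types, whereas the injured genotypes overlapped. Replicate 3 of the injured mutants was the lowest injured fish. The injury difference on the log2 scale was 5.55 in wild type (SE 0.28, edgeR adjusted p = 1.8e-08) and 6.74 in mutants (SE 0.31, edgeR adjusted p = 3.7e-09). The difference between the responses was 1.2 on the log2 scale (95% interval 0.43 to 1.96), with an unadjusted p of 0.0044 and an edgeR adjusted p of 0.42. Without injury the mutants fell short of wild type by a log2 difference of -1.53 (SE 0.28, edgeR adjusted p = 0.01). This call was lost with limma-voom (adjusted p = 0.056), in a fit restricted to the 8 libraries of non-injured fish (edgeR adjusted p = 0.074) and when the libraries highest in epidermis markers were left out, a setting chosen after seeing the data (edgeR adjusted p = 0.074). It was kept in 21 of 24 alternatives, with adjusted p between 2.8e-05 and 0.074. In injured fish the genotype difference was -0.33 (95% interval -0.82 to 0.15).

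The other ankrd1 gene, ENSDARG00000076192, was nearly silent without injury. Non-injured wild type replicates held 0, 1, 2 and 0 counts and non-injured mutants 1, 0, 0 and 2. Injured wild type held 11, 14, 35 and 16 counts, and injured mutants 37, 32, 17 and 26. The groups did not overlap in either genotype, but the gene entered the test only through the injured groups, so that it had to differ. Its log2 difference was 4.12 in wild type (SE 0.82) and 4.79 in mutants (SE 0.81), and the genotype difference after injury was 0.74 (95% interval -0.47 to 1.94). Together with ENSDARG00000075263 it gave 0.465% ± 0.282 of the pair's counts in injured wild type and 0.998% ± 0.127 in injured mutants (SD, n = 4), a difference that an exact permutation test did not pass (two-sided p = 0.0571, adjusted p = 0.3 over 16 comparisons of shares). The smallest p that 4 against 4 fish allow is 0.0286, too large for 1 share alone to pass that adjustment. The 16 include those of the xirp1 pair, which could not pass because ENSDARG00000092427 had 1 count in 1 library and 0 in the others.

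Ankrd2, the sister of ankrd1 that is best known from slow skeletal muscle in mammals, was at the edge of detection. ENSDARG00000002722 had 0 counts in all 8 non-injured fish, 0, 2, 4 and 2 counts in injured wild type, and 0, 0, 0 and 1 in injured mutants. No fold was computed from these counts. The second xirp1 gene, ENSDARG00000092427, had 1 count in injured wild type replicate 3 and 0 in the other 15 libraries.

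Csrp3, whose protein is known in mammalian heart for its part in stretch sensing at the Z-disc, was also scarce. ENSDARG00000101706 held 5, 4, 0 and 10 counts in non-injured wild type and 8, 19, 25 and 12 in injured wild type. It held 22, 22, 42 and 7 counts in non-injured mutants and 10, 29, 14 and 10 in injured mutants. Replicates 1 to 3 of the non-injured mutants lay above every non-injured wild type, and replicate 4 lay among them. The genotype difference without injury was 2.3 on the log2 scale (SE 0.68, edgeR adjusted p = 0.082), and DESeq2 gave it an adjusted p of 0.016, the lowest over 24 alternatives, of which the highest was 0.23. The injury differences, 1.37 in wild type (SE 0.69) and -0.75 in mutants (SE 0.62), had opposite signs and did not pass, nor did the difference between them (-2.12, unadjusted p = 0.036, edgeR adjusted p = 0.66).

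Xirp1 ENSDARG00000030722, which encodes Xin, was low in non-injured muscle and varied widely there. Non-injured wild type fish had 91.8, 8.72, 41.6 and 66.05 CPM, and injured wild type fish had 105, 134, 223 and 294 CPM. Non-injured mutants had 43.7, 50.06, 42.9 and 11.7 CPM, and injured mutants had 319, 364, 178 and 375 CPM. Injured fish lay above non-injured fish of the same genotype in every case, by a narrow margin in wild type, where the highest control stood at 91.8 and the lowest injured fish at 105 CPM. The log2 difference was 1.86 in wild type (SE 0.58, edgeR adjusted p = 0.031) and 3.06 in mutants (SE 0.61, edgeR adjusted p = 0.0023). The wild type call was lost with no filter on low counts (edgeR adjusted p = 0.064), in the fit of the wild type fish alone (0.074) and with the replicate number as a block (0.053). It was also lost on leaving out non-injured replicate 3 (edgeR adjusted p = 0.077) or 4 (0.054) and injured replicate 3 (0.065) or 4 (0.082). It was kept in 17 of 24 alternatives, whose adjusted p ran from 0.0038 to 0.082. The difference between the responses was 1.2 (95% interval -0.51 to 2.91), and the genotype difference after injury was 0.71 (95% interval -0.49 to 1.91).

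**Figure D1:**
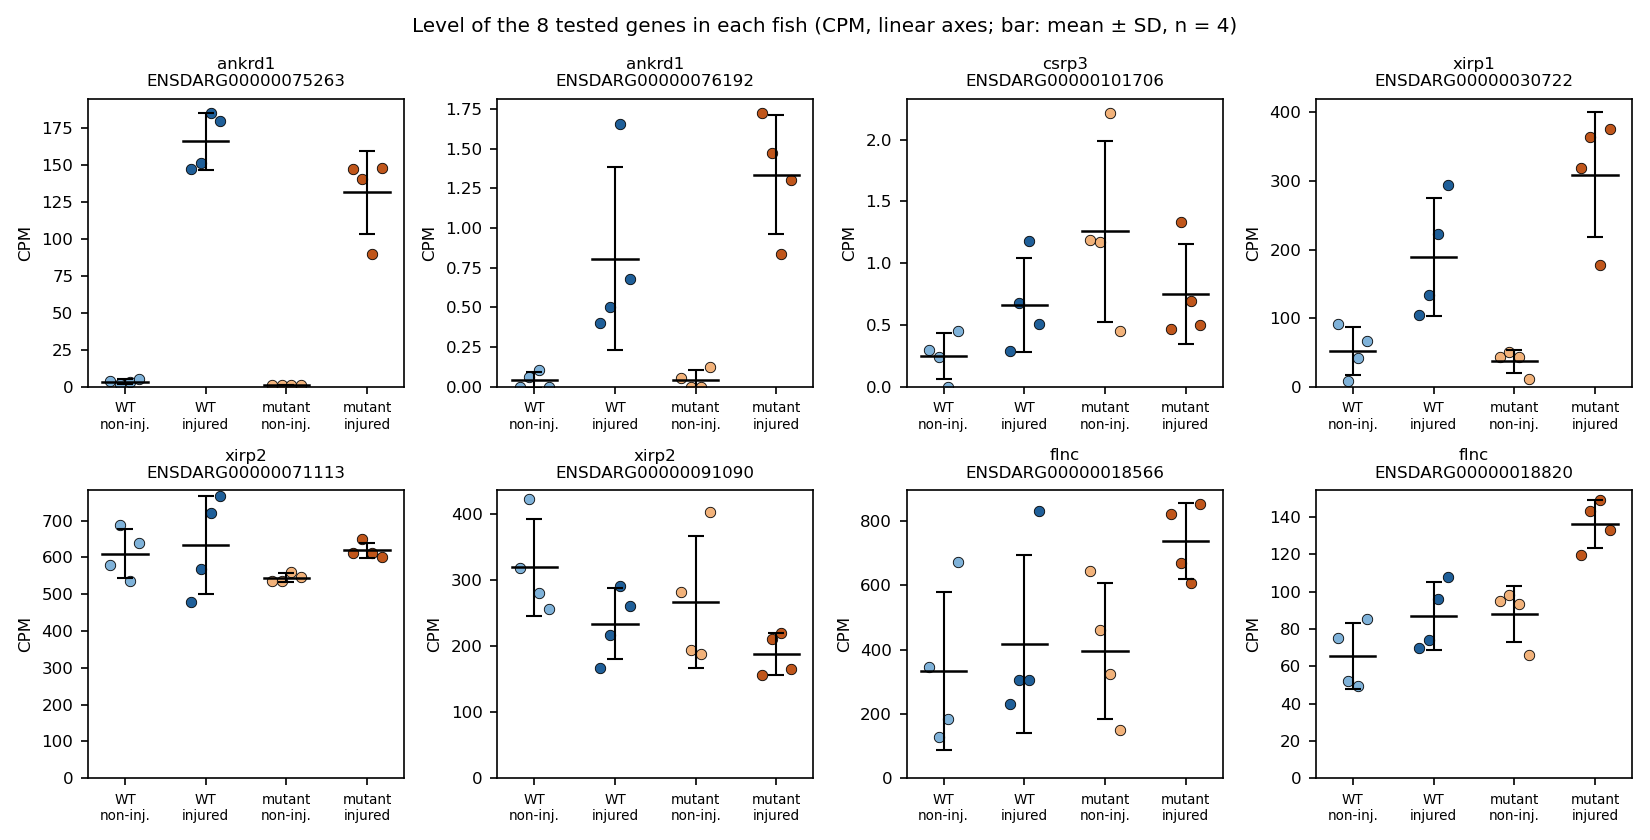
Level of each of the 8 tested genes in CPM (linear vertical axis) in the 4 groups, with 1 point per fish and a bar with whiskers for the mean ± SD (n = 4). The ankrd1 gene ENSDARG00000075263 stands at 90.05 to 186 CPM in injured fish and at 1.09 to 5.08 CPM in the others, while xirp2 ENSDARG00000091090 overlaps between injured and non-injured fish in both genotypes.

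The xirp2 genes encode the larger Xin relative, which is a lasting part of the muscle attachment machinery. ENSDARG00000071113 had 579, 688, 536 and 639 CPM in non-injured wild type and 480.0, 569, 719.7 and 768 CPM after injury. In mutants it had 536, 535, 560.8 and 548 CPM without injury and 613, 649, 613 and 602 CPM after it. The injured wild types spread on both sides of the controls, and the injured mutants all lay above theirs by a small margin, with log2 differences of 0.05 (95% interval -0.26 to 0.37) and 0.18 (95% interval -0.13 to 0.5). Scaled by library size alone, the mutant difference was 0.46 and passed (edgeR adjusted p = 0.036). That scaling moved the median of all genes tested to 0.34 in wild type injury and 0.26 in mutant injury, with 3673 genes higher and 537 lower in wild type (1956 and 1971 after TMM) and 3108 and 779 in mutants (2306 and 2190 after TMM).

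Its paralog ENSDARG00000091090 had the opposite sign. It stood at 317, 422, 279.7 and 256 CPM in non-injured wild type, and at 167, 216, 291 and 260.4 CPM in injured wild type. It stood at 281.5, 194, 188 and 402 CPM in non-injured mutants, and at 156, 211, 219 and 166 CPM in injured mutants. The groups overlapped in both genotypes, and the log2 differences of -0.45 (95% interval -0.98 to 0.08) and -0.5 (95% interval -1.03 to 0.03) did not pass (edgeR adjusted p = 0.21 and 0.15). As a share of the counts of both xirp2 genes it went from 34.1% ± 3.97 to 26.9% ± 1.59 in wild type and from 32.1% ± 7.94 to 23.2% ± 2.76 in mutants (SD, n = 4). Neither shift passed the exact permutation test (two-sided p = 0.0571 for each, adjusted p = 0.3). Even at the smallest possible p of 0.0286, these shifts alone could not have passed the adjustment over 16 comparisons. No conclusion on the shifts is drawn from the adjusted p.

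**Figure D2:**
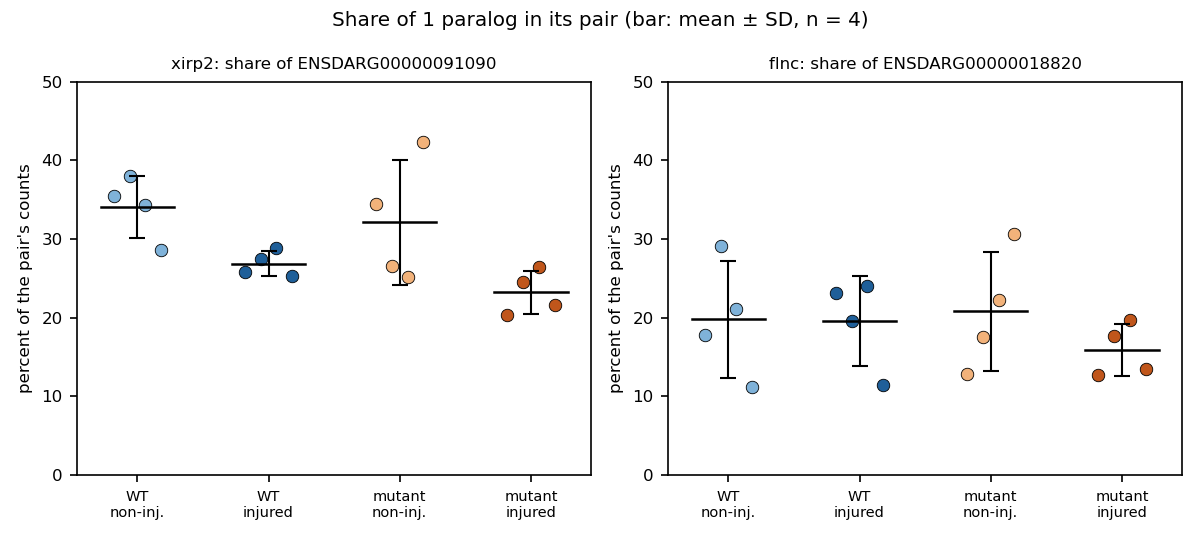
Share of ENSDARG00000091090 in the counts of both xirp2 genes (left) and of ENSDARG00000018820 in the counts of both flnc genes (right), in percent, with 1 point per fish and the mean ± SD (n = 4). The xirp2 share averages 34.1% and 32.1% without injury and 26.9% and 23.2% after it, whereas the flnc share averages between 15.9% and 20.8% in the 4 groups.

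The flnc gene ENSDARG00000018820 showed the steadier values of the filamin C pair. It had 75.1, 52.2, 49.2 and 85.15 CPM in non-injured wild type and 69.9, 74.1, 96.0 and 108 CPM in injured wild type. It had 95.01, 97.9, 93.2 and 65.9 CPM in non-injured mutants and 119.8, 143, 149 and 133 CPM in injured mutants. All 4 injured mutants lay above every other fish, and the wild type groups overlapped. The log2 difference with injury was 0.41 in wild type (SE 0.20, edgeR adjusted p = 0.14) and 0.63 in mutants (SE 0.20, edgeR adjusted p = 0.027). Scaled by library size alone, the wild type difference was 0.70 and passed (edgeR adjusted p = 0.048). The mutant call was lost without non-injured replicate 4 (edgeR adjusted p = 0.08) or injured replicate 2 (0.061), 3 (0.068) or 4 (0.05, rounded), and it was kept in 20 of 24 alternatives, whose adjusted p ran from 0.0087 to 0.08. Between the genotypes the difference was 0.43 without injury (unadjusted p = 0.045, edgeR adjusted p = 0.24) and 0.65 after it (SE 0.20, unadjusted p = 0.0047, edgeR adjusted p = 0.12). DESeq2 gave the latter an adjusted p of 0.039, the lowest over 24 alternatives, of which the highest was 0.36. The difference between the injury responses was 0.22 (95% interval -0.37 to 0.81).

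The flnc gene ENSDARG00000018566 varied widely within groups. Non-injured wild type had 347, 127, 184 and 672 CPM and injured wild type 232, 305, 304 and 831 CPM. Non-injured mutants had 645, 462, 325 and 149.5 CPM and injured mutants 822, 668, 606 and 853 CPM. Replicate 4 was the highest of both wild type groups and the lowest of the non-injured mutants, and both genotypes' injury groups overlapped. The log2 difference was 0.33 in wild type (95% interval -0.78 to 1.44) and 0.9 in mutants (95% interval -0.22 to 2.02). Its biological coefficient of variation was 50.4%, against 20.8% for ENSDARG00000018820 and 31.3% over all genes tested. The share of ENSDARG00000018820 in the pair gave an exact permutation p of at least 0.343 in the 4 comparisons, with means of 19.8% and 19.5% in wild type and 20.8% and 15.9% in mutants.

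**Figure D3:**
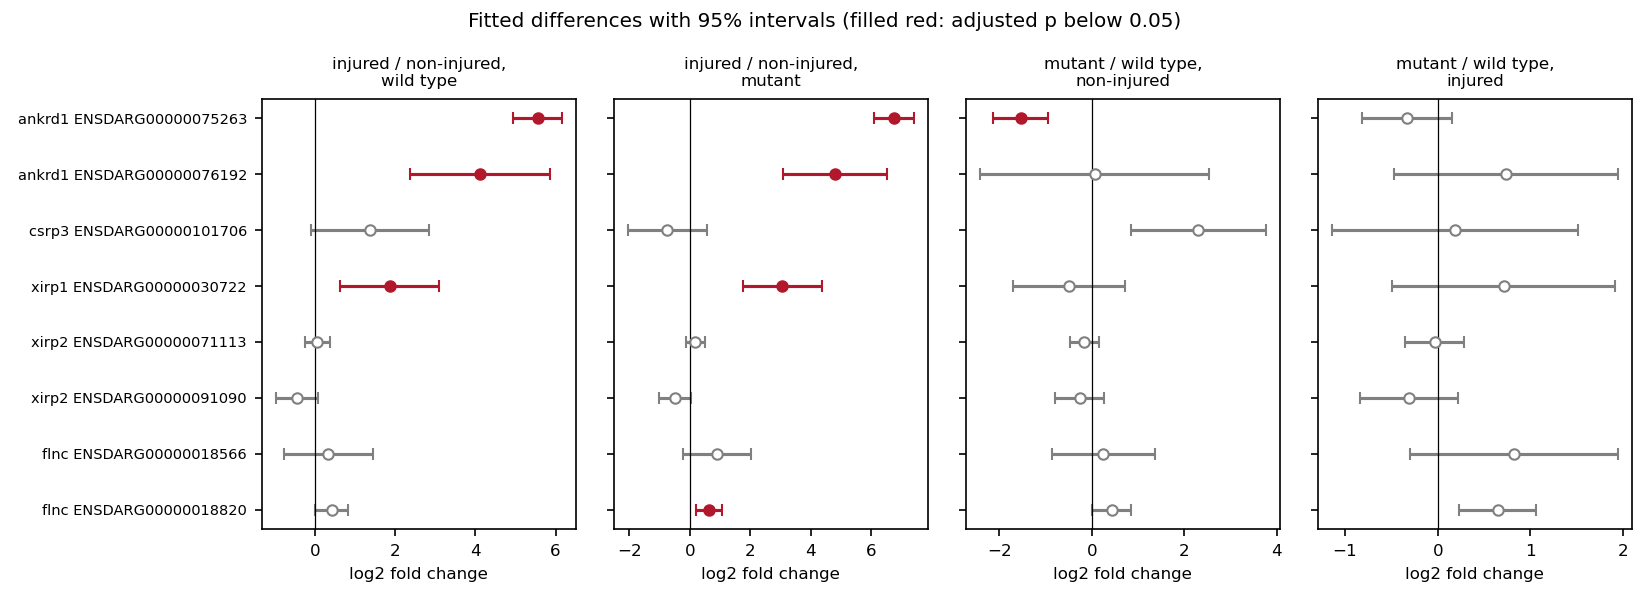
Fitted log2 fold change of the 8 tested genes in 4 comparisons, with 95% intervals (horizontal axes differ between panels). Filled red points passed an edgeR adjusted p below 0.05: 3 genes for injury in wild type, 4 for injury in mutants, 1 for genotype without injury and 0 for genotype after injury. The 3 and the 4 include ankrd1 ENSDARG00000076192, which entered the test only through the injured groups.

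Counted against all 16514 genes tested, 3 of the 8 members passed for injury in wild type, where 23.8% of all genes did, and all 3 rose (11.8% of all genes rose and 11.9% fell). For injury in mutants 4 passed, all higher, where 27.2% of all genes passed 14.0% rose and 13.3% fell. One of the 3 and of the 4 is ENSDARG00000076192, which had to differ, so these counts are read as a description. For genotype without injury 1 passed, lower in mutants, against 2.83% of all genes in either direction and 1.45% lower. For genotype after injury 0 passed with edgeR, against 1.48% of all genes, with 1 member at an unadjusted p below 0.05 (15% of all genes), 1 called by DESeq2 (4.24% of all genes) and 0 by limma-voom (1.63%). For the difference between the injury responses 0 passed with edgeR, against 0.0606% of all genes, with 2 members at an unadjusted p below 0.05 (7.31% of all genes), 0 called by DESeq2 (0.4% of all genes) and 0 by limma-voom (0.0303%). Groups of 4 fish did not overlap for 3 members in wild type injury (22.1% of all genes) and for 5 in mutant injury (31.1%), and between the genotypes for 1 without injury (9.04%) and 1 after it (11.8%). All 5 comparisons draw on the same 16 fish, and those of 1 genotype or 1 injury state share groups.

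Within groups, fish that were low in xirp1 tended to be low in ankrd1 ENSDARG00000075263 and in the flnc genes. In non-injured wild type replicate 2, log2 CPM of xirp1 ENSDARG00000030722 lay at -2.13 from its group mean, that of flnc ENSDARG00000018566 at -1.1 and that of ankrd1 ENSDARG00000075263 at -0.86. In non-injured mutant replicate 4 these deviations were -1.46, -1.21 and -0.15. The xirp2 gene ENSDARG00000091090 lay at 0.43 and 0.67 above its group mean in these fish. Over the 16 fish, deviations of xirp1 correlated with those of ankrd1 ENSDARG00000075263 at r = 0.851 (rho 0.812), with flnc ENSDARG00000018566 at r = 0.802 (rho 0.879) and with flnc ENSDARG00000018820 at r = 0.725 (rho 0.821). Without the 2 fish farthest from the median in xirp1, these were 0.794, 0.644 and 0.642. Of all genes, xirp1 itself included, 0.127%, 0.606% and 2.63% had a correlation with xirp1, of either sign, at least as large in size as the values over 16 fish. For ENSDARG00000091090 the correlation of -0.464 became 0.321 without those 2 fish, so its sign rests on them. The other xirp2 gene, ENSDARG00000071113, had r = 0.0887 with xirp1 over the 16 fish and 0.733 without those 2, so the flnc genes do not stand apart from it there. The summed skeletal muscle markers deviated the other way, with r = -0.584 for xirp1, -0.587 for ankrd1 ENSDARG00000075263, -0.634 for flnc ENSDARG00000018566 and -0.578 for flnc ENSDARG00000018820. Both fish named here were the highest of their groups in that sum, at 207500 CPM in wild type and 152700 CPM in mutants. The summed macrophage markers had r = -0.291 for xirp1, -0.27 for ankrd1 ENSDARG00000075263, -0.555 for flnc ENSDARG00000018566 and -0.726 for flnc ENSDARG00000018820. For the same genes in that order, the cardiac markers had r = -0.409, -0.191, -0.595 and -0.378. The cardiac sum was mostly myosin, and its r does not describe the other cardiac genes. In non-injured wild type it was 227.2 to 337.9 CPM, where MYH6 ENSDARG00000114031 alone averaged 256.3 CPM. The endothelial markers had the other sign, with r = 0.246, 0.17, 0.347 and 0.483. So did the smooth muscle markers (0.18, 0.152, 0.21 and 0.434) and those of regenerating fibres and myoblasts (0.125, 0.238, 0.295 and 0.412). Other lists of muscle proteins had smaller values for the same genes. They were -0.175, -0.222, -0.01 and 0.119 for Z-disc and costamere partners. For titin N2A and MARP partners they were -0.19, -0.221, -0.135 and 0.143. Fibroblast and tendon markers had -0.108, -0.0624, -0.157 and -0.12, and epidermis markers 0.22, 0.235, 0.0311 and -0.162. The part of these cell types in the deviations was not tested. The points share libraries and depth, and the values are a description of these 16 fish.

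**Figure D4:**
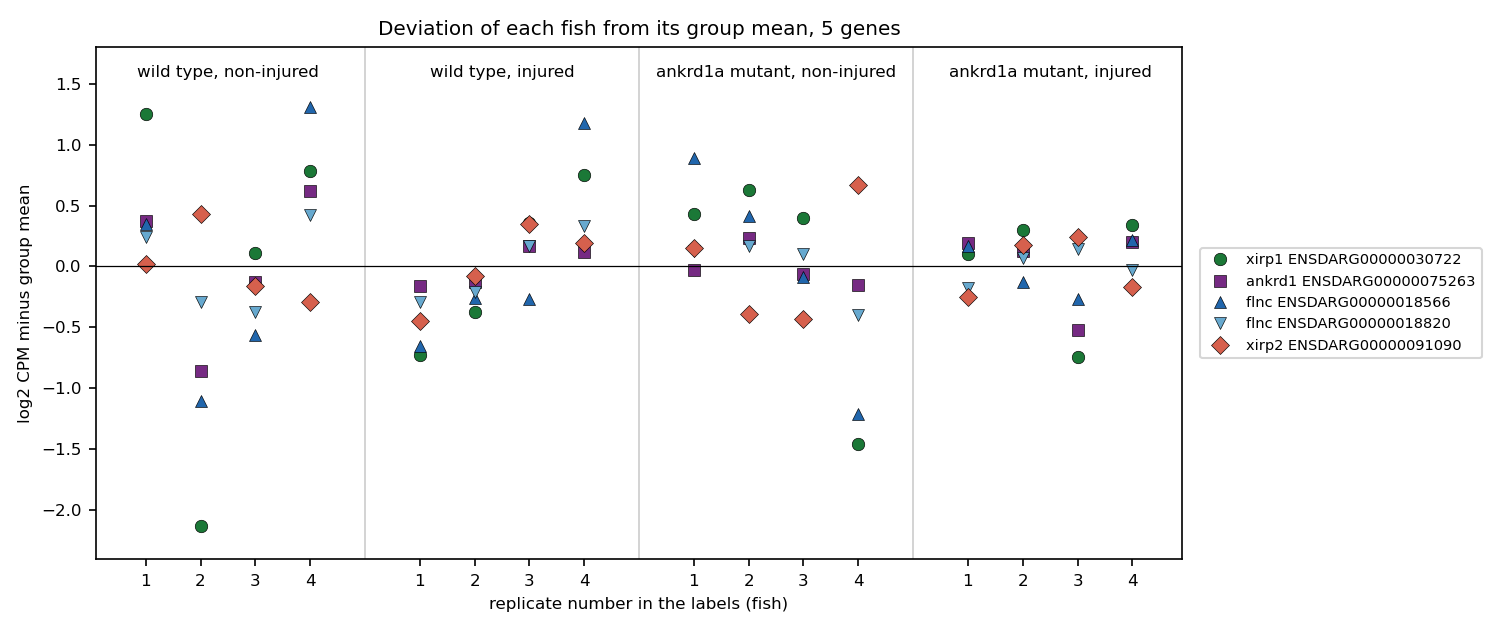
Deviation of log2 CPM from the group mean for 5 genes in each of the 16 fish, ordered by group and by replicate number, which carries no order. In non-injured wild type replicate 2 and non-injured mutant replicate 4, xirp1 lies at -2.13 and -1.46 while xirp2 ENSDARG00000091090 lies at 0.43 and 0.67.

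For each tested member, the genes with the most similar pattern were taken by the root mean square difference of centred log2 CPM over the 16 fish, among 10822 genes. Each gene was centred on its mean over all 16 fish, so its change with injury is part of the pattern. For ankrd1 ENSDARG00000075263 these were the fast myosin gene myhz2 (0.786), txnb (0.891) and RRAD (0.93). For xirp1 they were the small heat shock gene hspb9 (0.624), the actin gene actc1a (0.706) and RAI14 (0.749), and for flnc ENSDARG00000018566 they were hspb9l (0.383), the troponin I gene TNNI2 ENSDARG00000029995 (0.392) and ACTMAP (0.408). For flnc ENSDARG00000018820 they were the spectrin gene SPTB (0.159), MARCHF7 (0.197) and POPDC2 (0.208), and for xirp2 ENSDARG00000071113 they were ZEB1 (0.12), NEXN (0.126) and akt2 (0.127). The scarce ankrd1 ENSDARG00000076192 was closest to CHRNG (0.58), the fetal subunit of the acetylcholine receptor, nes (0.618) and itgae.1 (0.635). The scarce csrp3 was closest to fbxo6.1 (0.656), CASQ2 (0.686) and dync1i2b (0.718). Closest to xirp2 ENSDARG00000091090 were PBLD (0.158), SIX2 (0.203) and slc41a3 (0.211). A smaller value means a closer pattern, and genes that vary little have small values in any case.

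Around these proteins, the list of Z-disc and costamere partners held 57 tested genes, of which 8 rose and 11 fell with injury in wild type and 9 rose and 8 fell in mutants. Of all genes tested, 11.8% rose and 11.9% fell in wild type, and 14.0% rose and 13.3% fell in mutants. The list medians were -0.1 and 0.08, against -0.03 and -0.02 for all genes tested. PDLIM3 ENSDARG00000014248, an actinin-associated LIM protein, rose from 5.495 ± 2.46 to 35.2 ± 5.47 CPM in wild type (log2 2.68) and from 3.62 ± 1.38 to 35.3 ± 5.565 CPM in mutants (log2 3.28). The mechanosensitive focal adhesion protein zyxin (ZYX) rose by 1.34 and 1.88 on the log2 scale, and FHL1 ENSDARG00000056653 by 1.54 and 1.64, whereas SMPX fell by 1.44 and 1.42. Between genotypes, lims2, a partner of integrin-linked kinase at attachment sites, was lower in mutants without injury (-0.7, edgeR adjusted p = 0.036) and after it (-1.02, edgeR adjusted p = 0.0056). ILK itself was higher in mutants without injury (0.46, edgeR adjusted p = 0.043).

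Among the 13 tested titin N2A and MARP partners 3 rose and 0 fell in wild type, and 5 rose and 0 fell in mutants, with medians of -0.09 and 0.13. The shares over all genes tested were 11.8% higher and 11.9% lower in wild type, and 14.0% and 13.3% in mutants. Of the 19 tested chaperones of filamin turnover, 1 rose and 6 fell in each genotype, with medians of -0.49 and -0.56. HSPA8 ENSDARG00000068992, which encodes the constitutive Hsc70 chaperone, rose by 1.48 and 1.39 on the log2 scale in wild type and mutants (4042 to 32422 counts per library). HSPA8 ENSDARG00000037403 fell by 1.88 and 1.81, but it was scarce, at 8 to 55 counts per library. Better counted genes of this list fell too. In mutants these were synpo2b (-0.75, edgeR adjusted p = 0.0084, 2396 to 4959 counts) and dnajb6a (-0.56, edgeR adjusted p = 0.0068, 205 to 423 counts). In wild type STUB1 fell (-0.62, edgeR adjusted p = 0.013, 144 to 262 counts). CRYAB ENSDARG00000101380 fell there too (-7.48, edgeR adjusted p = 0.0096), but it held 0 to 87 counts, with 5 libraries at 0. Of the 10 tested relatives of the same families, 0 passed in wild type (edgeR). In mutants flna, the widely expressed filamin, rose (0.83, edgeR adjusted p = 0.0094) and CSRP2 ENSDARG00000011961 fell (-1.52, edgeR adjusted p = 0.026). CSRP2 was scarce, at 4 to 35 counts per library.

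Markers of other cell types moved with injury as well, where 11.8% of all genes rose and 11.9% fell in wild type. In mutants 14.0% of all genes rose and 13.3% fell. Of 19 tested macrophage markers 10 rose in wild type and 17 in mutants, and none fell, with summed levels of 167.5 to 326 against 335 to 601.5 CPM in wild type and 164 to 232 against 425 to 585.5 CPM in mutants. Of 15 tested fibroblast and tendon markers 11 and 10 rose and none fell, with sums of 3296 to 5454 against 11610 to 14730 CPM in wild type and 3294 to 3926 against 8685 to 10530 CPM in mutants. Of 10 tested markers of regenerating fibres and myoblasts 6 rose in each genotype, among them the myogenic regulator MYOG by 2.06 and 2.03 on the log2 scale. The fusion gene MYMK is one of the 6, at 0.0243 CPM in non-injured wild type and 0.126 CPM in non-injured mutants, and like ENSDARG00000076192 it entered the test only through the injured groups. The sums of this list overlapped in wild type (142.0 to 177.1 against 155.9 to 188.8 CPM). They did not in mutants (138.1 to 148.5 against 186.2 to 228.6 CPM). Of 9 endothelial markers 7 and 8 fell. Of 16 skeletal muscle markers 5 rose and 3 fell in wild type and 6 rose and 4 fell in mutants. TNNT3 ENSDARG00000030270 is among the 5 and the 6, at 0 CPM in non-injured wild type and 0.0404 CPM in non-injured mutants. Like MYMK, TNNT3 ENSDARG00000030270 entered the test only through the injured groups. Of 7 tested smooth muscle markers 1 rose and 2 fell in wild type and 2 fell in mutants. The skeletal muscle sums overlapped, at 105200 to 207500 against 90320 to 140700 CPM in wild type and 94220 to 152700 against 86510 to 99430 CPM in mutants. Epidermis markers ran from 140 to 2050 CPM in sum, and 1 of 14 fell in wild type and 0 passed in mutants. The part of these cell types in the rise of ankrd1, xirp1 and flnc was not tested.

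Heart muscle is where ankrd1 and csrp3 are best known, and its markers were checked too. Of 15 listed cardiac genes 4 could be tested, and 1 rose in wild type and 1 rose and 1 fell in mutants, these being genes of the MYH6 symbol that belong to the myosin heavy chains. The natriuretic peptide gene nppb was at 0 counts in all 16 libraries, nppa at 0 to 1, MYL7 at 0 to 4, cmlc1 at 0 to 3 and TBX5 at 0 to 1. Of the other listed cardiac genes, only those named next were counted in every library. MYH6 ENSDARG00000114031 held 1182 to 8976 counts, MYH6 ENSDARG00000079564 29 to 2296, TNNI1 ENSDARG00000052708 22 to 122 and TNNT2 ENSDARG00000100694 7 to 63. The rest were absent from some libraries. The myh6 gene ENSDARG00000090637 held 0 to 16 counts, TNNI1 ENSDARG00000000474 0 to 10 and TNNT2 ENSDARG00000020610 0 to 7. HAND2 held 0 to 8 counts, gata4 0 to 4 and NKX2-5 0 to 2.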

How the data were processed

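Estimated counts per gene, deposited by the authors, come from muscle RNA of 16 zebrafish, and all 16 columns were matched to the labels (0 left over). The submitters' processing notes name RSEM 1.3.3, fastp 0.23.4 and STAR (2.7.0, 2.7.10), with no role stated. Build, annotation and strandedness: not given in the sources used here. Whole numbers made up 94.29% of the table and all values of the 10 genes, and values were rounded to whole numbers before testing. Reads shared by paralogs may be split between them.

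Genes passing filterByExpr (minimum count 10, minimum total 15) numbered 16514. edgeR 4.0.16 in R 4.3.3 fitted TMM-scaled counts of all 16 libraries with 1 mean per group by robust quasi-likelihood, and a gene was called below 0.05 after Benjamini-Hochberg adjustment over all of them. Intervals of 95% use the t distribution with edgeR's degrees of freedom. Other fits used DESeq2 1.42.0 and limma-voom (limma 3.58.1). Log2 CPM used a prior count of 2. Shares were compared by two-sided exact permutation tests. Replicates are separate fish. The 12 gene lists matched 195 of 211 symbols. Genes named from them for a difference are among the called genes with the smallest p, up to 4 per list and comparison. Not all of those are named. The members and lists were chosen with earlier results of these data known. Sequences and lengths were not used, so levels of different genes were not compared.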

Additional observations from a re-analysis of the deposited data

Results flagged for a closer look

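Of 32 groups of 4 fish examined for a single fish far from the others (8 genes in 4 groups), 3 held one, and chance flags about 1 in 20 groups. The ankrd1 gene ENSDARG00000075263 stood at 90.05 CPM in injured mutant replicate 3, below the other 3 injured mutants. The flnc gene ENSDARG00000018566 stood at 830.9 CPM in injured wild type replicate 4, above the other 3. The flnc gene ENSDARG00000018820 stood at 65.88 CPM in non-injured mutant replicate 4, below the other 3.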

How the results depend on the processing

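The tested members' differences were recomputed under each alternative. Of 955 values, 913 kept sign and side of the threshold, 14 lost the call, 4 gained it, 24 uncalled values changed sign, and 0 called values reversed. For injury in wild type, 4 were called with library size only (25.5% of all genes), 2 with no filter (12.6%) and 2 with only the 2 groups (16.3%). With paralogs summed 2 of 5 genes or gene pairs were called (23.8%), and 2 to 3 members when 1 fish was left out (15.5% to 24.8%). For injury in mutants, 5 were called with library size only (23.5% of all genes), 2 of 5 with paralogs summed (27.2%), and 3 to 4 when 1 fish was left out (20.7% to 27.2%). For genotype without injury DESeq2 called 2 (6.88% of all genes), limma-voom 0 (1.75%), the fit of only the 2 groups 0 (0.882%), and the fit without the libraries highest in epidermis markers, an alternative chosen after seeing the data, 0 (0.672%). For genotype after injury DESeq2 called 1 (4.24%). With the replicate block, 2, 4, 1, 0 and 0 members were called in the 5 comparisons (22.1%, 25.9%, 2.32%, 0.993% and 0.0242% of all genes). Under that block xirp1 lost its call in wild type (edgeR adjusted p = 0.053). The numbers are not treated as pairing the fish: 8 of 24 same-numbered pairs had a correlation of deviations above 0.1 (range -0.266 to 0.344). Between non-injured and injured wild type, replicates 1 to 4 had 0.212, 0.104, 0.0532 and 0.344. Between non-injured and injured mutants they had 0.0563, -0.194, 0.0619 and -0.0374, and between the non-injured genotypes -0.111, -0.194, -0.125 and -0.146. Pairs of different numbers were not compared. For flnc ENSDARG00000018566, the wild type injury difference was -0.25 without injured replicate 4. Counts of 0 to 4 in ankrd2 and the second xirp1 gene leave no difference detectable at this depth. The cause of these changes was not tested.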

Other observations

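Some listed genes of other cell types passed between the genotypes, where 1.48% of all genes passed after injury and 2.83% without it. In injured fish 2 of 15 fibroblast and tendon markers did (list median -0.44). The tendon gene THBS4 ENSDARG00000020072 was lower in mutants by a log2 difference of -1.32 (edgeR adjusted p = 0.0029), and the matrix gene DCN by -0.76 (edgeR adjusted p = 0.021). The sums of this list did not overlap between the injured genotypes, at 11610 to 14730 CPM in wild type and 8685 to 10530 CPM in mutants. Without injury these sums overlapped. Without injury 1 of 19 macrophage markers passed (list median -0.56), MFAP4 ENSDARG00000088745, which was lower in mutants (-2.7, edgeR adjusted p = 0.014). Of 10 markers of regenerating fibres and myoblasts 1 passed without injury (list median 0.06), the myogenic regulator MYF5, which was higher in mutants (0.81, edgeR adjusted p = 0.019). Of 16 skeletal muscle markers 1 passed in injured fish (list median -0.23), the fast myosin gene myhz2, which was higher in mutants (1.13, edgeR adjusted p = 0.022).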
